A study of Mus musculus with 18 samples.

Results

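Integrin and claudin genes were examined in mouse liver RNA sequencing data, as the cell adhesion and cell junction genes that take part when leukocytes leave the blood. The members were all rows of the count table whose symbol is that of an integrin α or β subunit gene or of a numbered claudin gene. This rule, which uses names alone, gave 49 of 55487 genes, made up of 26 integrin and 23 claudin genes. The study asked how a diet that promotes fatty liver, and a raised level of lysosomal acid lipase (LAL, the lysosomal enzyme that splits cholesteryl esters and triacylglycerol), alter the liver of male C57BL/6J mice. Every mouse received an adeno-associated virus through the eye vein 1 week before its diet began, and every viral cargo was driven by the hepatocyte promoter TBG. CON-GFP mice carried green fluorescent protein and ate a purified control diet for 16 weeks, FPC-GFP mice carried the same cargo and ate a high-fat diet with added fructose, palmitate and cholesterol (FPC) together with sugar water for 16 weeks, and FPC-LIPA mice carried human LIPA and ate the FPC diet. Each group held 6 mice with 1 liver library each, 18 in all, so the reference for LIPA was a vector that makes another protein. Mice were bought at 7 weeks of age and acclimatized for 1 week, and no library of LIPA on the control diet was analysed here.

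Integrins are paired receptors of 1 α and 1 β chain that tie a cell to matrix proteins or to counter-receptors on other cells. The β2 integrins are found on leukocytes, where LFA-1 (α chain Itgal) and Mac-1 (α chain Itgam) bind ICAM-1 on the vessel wall, while the β1 and αv integrins of liver cells bind collagen, laminin, fibronectin and vitronectin. Claudins are membrane proteins of the tight junction, which in liver closes the bile canaliculus off from the sinusoidal side of the hepatocyte. Some claudins seal the junction, and others, such as claudin-2, form pores in it.

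The genes of 4 of the α chains that pair with β2 lie on chromosome 7 of the mouse genome (build GRCm38). Itgal spans 127296260 to 127335138, and Itgam (128062640 to 128118491), Itgax (128129547 to 128150657) and Itgad (128154376 to 128223816) follow one another on the + strand. Itgb2 itself lies on chromosome 10 (77530252 to 77565708, + strand). Itgam and Itgax were the only members that passed both the test and the fold minimum used below in both comparisons, and the 250 bases before the start of each are therefore shown as RefSeq gives them for GRCm38.p6. Capitals mark GAGGAA, a core bound by PU.1, or its reverse complement in Itgam, and TGANTCA, a motif bound by AP-1, in Itgax.
Itgam, chr7:128062390-128062639, + strand: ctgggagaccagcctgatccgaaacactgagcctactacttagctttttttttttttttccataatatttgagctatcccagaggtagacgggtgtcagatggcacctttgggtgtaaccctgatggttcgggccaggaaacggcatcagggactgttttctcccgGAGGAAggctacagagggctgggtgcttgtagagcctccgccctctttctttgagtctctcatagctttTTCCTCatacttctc
Itgax, chr7:128129300-128129549, + strand: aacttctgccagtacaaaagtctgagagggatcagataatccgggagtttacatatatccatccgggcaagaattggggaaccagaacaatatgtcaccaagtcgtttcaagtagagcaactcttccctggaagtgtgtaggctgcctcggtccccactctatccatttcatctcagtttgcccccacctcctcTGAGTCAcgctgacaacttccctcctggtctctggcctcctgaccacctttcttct
GAGGAA stood once on the + strand of Itgam, starting 84 bases before its first base, and once on the other strand, starting 15 bases before it. A single TGANTCA stood 56 bases before the start of Itgax. The same letters on either strand were in 23.2% of all 32851 upstream windows for GAGGAA and in 6.75% for TGANTCA. Of the 47 windows found for 37 members, 17 held GAGGAA, 3 held TGANTCA and 10 held CACCTG, an E-box bound by Snail factors that 17.2% of all windows hold. These matches describe letters, and no binding was measured.

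The libraries held 16632146 to 37739301 counts. Levels are given as CPM, counts scaled to library size with TMM factors, or as CPM per kb of exon where genes are compared with each other. All 6 hepatocyte markers were detected, with a summed level of 47900 to 99100 CPM over the libraries. Mouse Lipa was at 243 ± 33.9 CPM in CON-GFP, 336 ± 59.3 in FPC-GFP and 300.2 ± 44.8 in FPC-LIPA (SD, n = 6), and log2 fold change (log2FC) was -0.16 for FPC-LIPA against FPC-GFP (SE 0.18, adjusted p = 0.513). The human cargo has no row among the mouse genes, so the LIPA labels could not be checked by it. Ribosomal protein genes took 6.58%, 8.28% and 8.20% of the counts in FPC-LIPA 36, 39 and 37, against 2.19 to 2.98% in FPC-LIPA 31, 33 and 34 and 1.45 to 1.82% in FPC-GFP. Genes with exons under 1000 bp took 9.68 to 12.5% of counts in the same 3 libraries and 5.47 to 6.84% in the other FPC-LIPA libraries. Library names in the labels end in a number, which was 55 to 68 in 14 libraries and lay outside that run in 4, namely mice 1 and 2 of CON-GFP, mouse 20 of FPC-GFP and mouse 37 of FPC-LIPA. What the number marks is not stated. Calls of members below are therefore given also within the run of 55 to 68 and, for LIPA, without FPC-LIPA 36, 37 and 39.

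Per kb of exon, claudin RNA came mainly from 4 genes and β integrin RNA mainly from 2. Cldn3, Cldn2, Cldn1 and Cldn12 together made up 92.9% ± 0.947 of summed claudin CPM per kb in CON-GFP, 91.7% ± 1.57 in FPC-GFP and 87.9% in FPC-LIPA. Cldn3, a sealing claudin, held the largest share in CON-GFP (38.4% ± 7.71) and FPC-GFP (45.7% ± 3.27). Itgb1, the β chain shared by most matrix-binding integrins, held 63.9% ± 6.40 of the summed β chains in CON-GFP and 55.2% ± 4.01 in FPC-GFP. Itgb5, which pairs with αv and binds vitronectin, followed with 31.8% ± 5.93 and 37.0% ± 3.80 (SD, n = 6 throughout). The leukocyte chain Itgb2 was a small part of the β chains, at 2.48% ± 0.573 in CON-GFP, 5.88% ± 1.40 in FPC-GFP and 7.95% ± 4.99 in FPC-LIPA. The FPC-LIPA libraries ran from 4.01% to 17.2%, the highest being FPC-LIPA 33, with a median of 6.23%. Averaged over the 18 libraries, Cldn3 was highest at 42.1 CPM per kb, followed by Itgb1 (36.8), Cldn2 (23.6), Itgb5 (19.3), Cldn12 (15.7), Cldn1 (13.6), Cldn5 (5.25), Itga5 (4.69) and Itgb2 (3.40). This order differed between group means and between libraries. Itga5 was above Cldn5 in CON-GFP (4.82 against 3.42) and FPC-GFP (5.31 against 4.43), and Cldn1 just above Cldn12 in CON-GFP (15.7 against 15.4). In FPC-LIPA means, Itgb1 was above Cldn3 (40.0 against 33.7), Cldn12 (18.0) above Cldn2 (17.5) and Itgb5 (16.4), and Itgb2 (5.03) above Itga5 (3.95). Within FPC-LIPA only 36, 37 and 39 put Itgb1 above Cldn3, as CON-GFP 2, CON-GFP 6 and FPC-GFP 20 also did. Of all libraries, only FPC-LIPA 36, 37 and 39 put Cldn12 above both Cldn2 and Itgb5. In those libraries Cldn2 held 7.66 to 13.2% of claudins and Cldn12 27.5 to 30.5%. In FPC-LIPA 31, 33 and 34 the shares were 22.7 to 24.3% and 8.91 to 13.6%. Among the β2 partners Itgal made up 76.3% ± 4.52 in CON-GFP, 78.2% ± 4.78 in FPC-GFP and 65.3% in FPC-LIPA, where FPC-LIPA 36 held 45.8% Itgal and 43.0% Itgax.

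**Figure D1:**
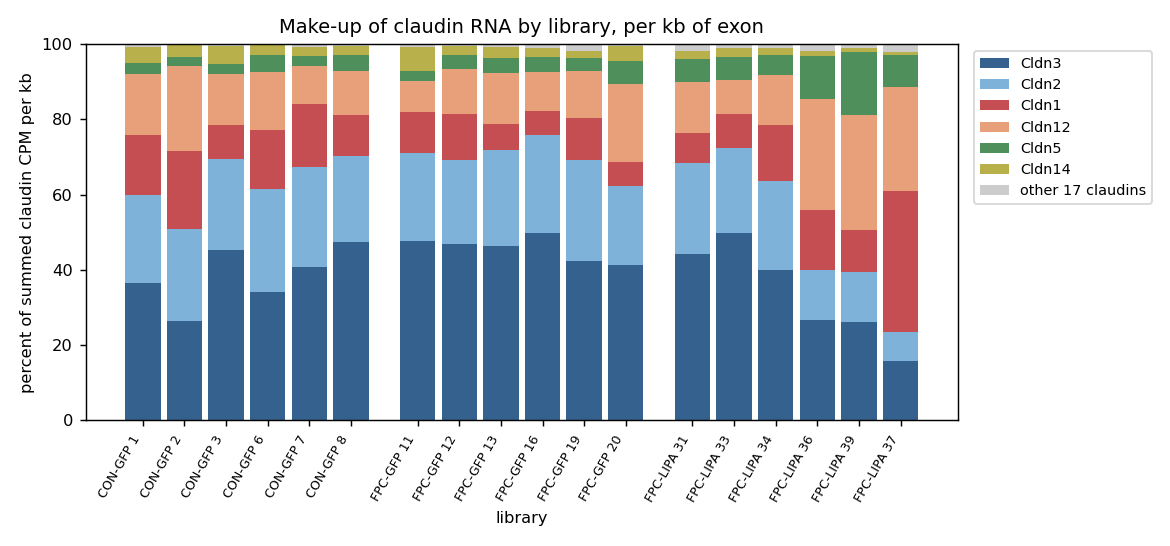
Share of each claudin in the summed claudin level (percent of CPM per kb of exon, vertical axis) in each of the 18 libraries (horizontal axis), with the 6 highest genes in colour and the rest in grey. Cldn3 and Cldn2 together fill over 50% of each bar in CON-GFP and FPC-GFP, and the bars of FPC-LIPA 36, 39 and 37 hold a Cldn3 share of 26.7%, 26.2% and 15.8%.

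Counts were tested with the edgeR quasi-likelihood test, and a gene was called differentially expressed (DE) where it passed an adjusted p of 0.05 and differed by 2-fold or more. Of the 26 integrin genes, 21 passed the filter on low counts in both comparisons. Of the 23 claudin genes, 8 passed it for the diet and 9 for LIPA. The Benjamini-Hochberg adjustment ran over all 14307 and 14620 genes tested, and p-values measure the spread between single mice.

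**Figure D2:**
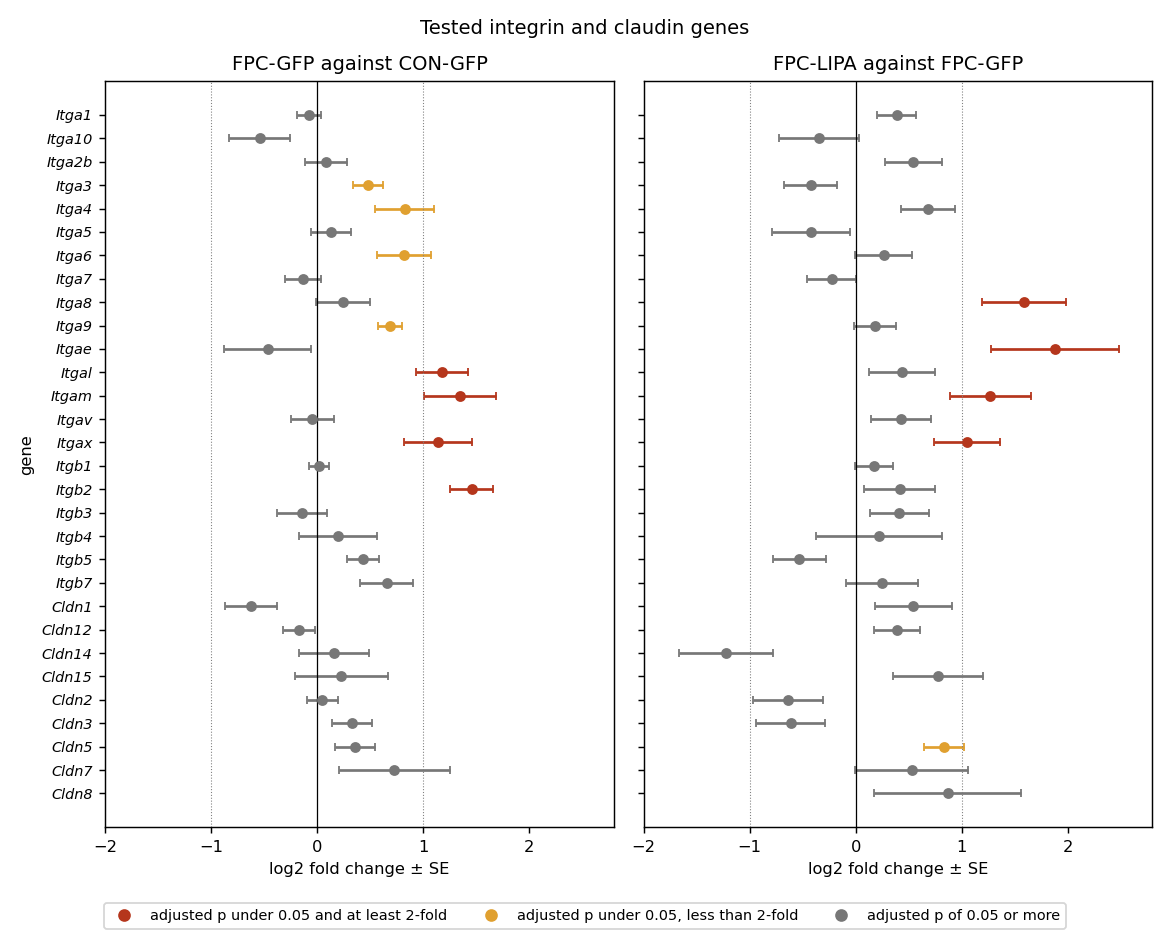
Log2 fold change with its standard error (horizontal axis) for each tested integrin and claudin gene (vertical axis), for FPC-GFP against CON-GFP on the left and FPC-LIPA against FPC-GFP on the right, with dotted lines at a fold change of 2. The DE genes (red) are Itgb2, Itgal, Itgam and Itgax on the left and Itga8, Itgae, Itgam and Itgax on the right, and no red point lies below 0.

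The first comparison asked what the FPC diet alone did. The 4 tested leukocyte β2 genes, Itgb2, Itgal, Itgam and Itgax, were all DE and all higher in FPC-GFP than in CON-GFP. No other integrin and no claudin was DE, and none was DE lower, where 4.76% of all tested genes were DE higher and 2.44% DE lower. Itgb2, the β chain that LFA-1 and Mac-1 share, had a lowest, median and highest level of 2.39, 4.44 and 5.21 CPM in CON-GFP and of 8.33, 11.7 and 16.7 CPM in FPC-GFP. The groups did not overlap, and log2FC was 1.46 (SE 0.20, adjusted p = 0.000325, n = 6 per group). Itgal, the α chain of LFA-1, was at 2.71, 6.29 and 8.59 CPM in CON-GFP and at 10.2, 12.3 and 17.5 CPM in FPC-GFP. Every FPC-GFP library again lay above every CON-GFP library (log2FC 1.18, SE 0.24, adjusted p = 0.00363).

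Itgam, the α chain of Mac-1 on myeloid cells, was far rarer, with 5 to 9 counts per library in CON-GFP and 11 to 45 in FPC-GFP. Its level ran from 0.197 through 0.253 to 0.322 CPM in CON-GFP and from 0.455 through 0.525 to 1.35 CPM in FPC-GFP, without overlap (log2FC 1.35, SE 0.34, adjusted p = 0.0113). The highest value belonged to FPC-GFP 19, and without that mouse log2FC was 0.99 (adjusted p = 0.0263). Itgax, the CD11c chain of dendritic cells and macrophages, ran from 0.580 through 0.943 to 1.38 CPM in CON-GFP and from 0.966 through 2.12 to 3.30 CPM in FPC-GFP. Its groups overlapped in FPC-GFP 11 and 13 (log2FC 1.14, SE 0.32, adjusted p = 0.0198), and without FPC-GFP 19 log2FC was 0.98 (adjusted p = 0.0531). Within the libraries numbered 55 to 68, Itgb2 (log2FC 1.26, adjusted p = 0.00272) and Itgam (1.44, adjusted p = 0.0430) remained DE. There Itgal fell just under the fold minimum (0.93, adjusted p = 0.0090) and Itgax missed both thresholds (0.96, adjusted p = 0.102).

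Macrophage marker lists were higher in the same comparison, and those of other leukocytes mostly did not pass. The pan-leukocyte list (5 genes, none at 0) summed to 24.0 to 45.1 CPM in CON-GFP and 43.0 to 79 CPM in FPC-GFP, with 2 of 5 genes higher at an adjusted p under 0.05. The monocyte and macrophage list (8 genes, none at 0) summed to 55.9 to 128 CPM and 165 to 418 CPM, with 6 of 8 DE higher. The Kupffer cell list, the resident macrophages of the sinusoids (6 genes, none at 0), summed to 249 to 408 CPM and 403 to 572 CPM, with 5 of 6 DE higher. Of all tested genes 4.76% were DE higher. Within numbers 55 to 68 the counts DE higher were 5 of 8 and 3 of 6, and 1 of the 5 pan-leukocyte genes passed. T cell markers (6 genes, none at 0) summed to 2.68 to 5.11 CPM in CON-GFP and 1.59 to 4.25 CPM in FPC-GFP, and 1 of the 4 tested was DE lower. None of the tested markers of neutrophils (3), B cells (4), NK cells (2) or dendritic cells (3) passed by edgeR. Ptprc, the CD45 gene of all leukocytes, was at 6.26 ± 2.20 CPM in CON-GFP and 8.86 ± 2.37 in FPC-GFP (log2FC 0.50, adjusted p = 0.118). The ratio of Itgb2 to Ptprc CPM was 0.319 to 0.958 in CON-GFP and 1.12 to 1.46 in FPC-GFP, without overlap. The same ratio overlapped between the groups for Itgal (0.362 to 1.51 and 1.35 to 1.77) and Itgam (0.0197 to 0.0600 and 0.0445 to 0.105). It also overlapped for Itgax (0.0776 to 0.232 and 0.160 to 0.381) and Itga4 (0.183 to 0.345 and 0.282 to 0.348). In whole liver, more cells of a type and more RNA per cell cannot be told apart, and the part of these cells in the result was not tested.

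**Figure D3:**
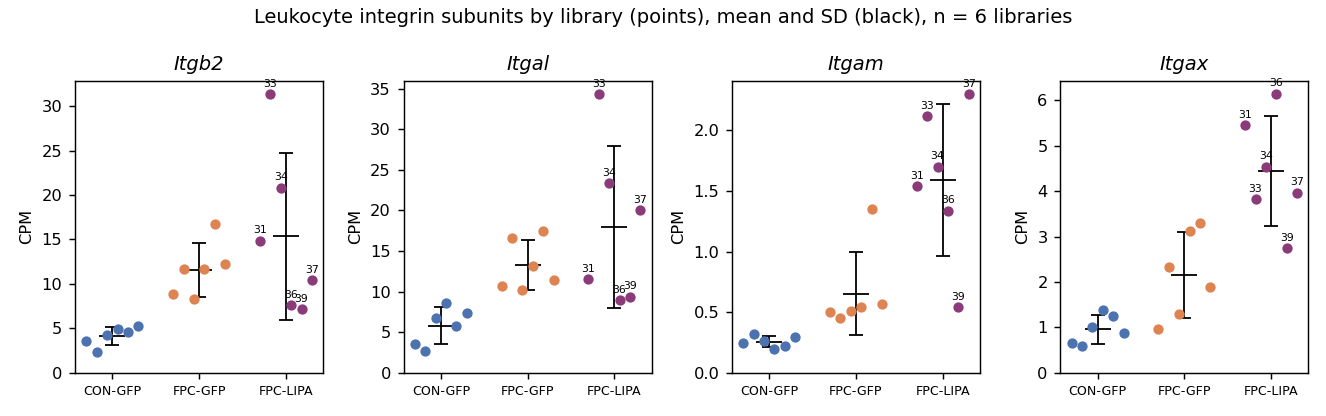
Level of Itgb2, Itgal, Itgam and Itgax (CPM, vertical axes from 0) in each library of the 3 groups (points), with the mean and SD in black and FPC-LIPA mice numbered. All FPC-GFP points for Itgb2, Itgal and Itgam lie above all CON-GFP points, and FPC-LIPA 33 is highest for Itgb2 and Itgal.

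A further 4 integrin α chains were higher in FPC-GFP at an adjusted p under 0.05 but below the fold minimum, which with the β2 genes made 8 of 21 integrins against 12.9% of all tested genes higher. No integrin or claudin was lower at that threshold, against 10.9% of all tested genes. Itga9, whose product pairs with β1 and binds tenascin-C and osteopontin, was at 7.67, 10.1 and 11.2 CPM in CON-GFP (lowest, median and highest) and 14.3, 15.6 and 18.4 CPM in FPC-GFP. The groups stood apart with little spread (log2FC 0.69, SE 0.11, adjusted p = 0.00101). Itga3, a laminin receptor chain, was at 3.09, 4.44 and 5.15 CPM in CON-GFP and 5.64, 6.03 and 6.78 CPM in FPC-GFP, again without overlap (log2FC 0.48, SE 0.14, adjusted p = 0.0241). Together with Itgb2, Itgal and Itgam this made 5 members whose FPC-GFP values all lay above CON-GFP, where 6.19% of all tested genes did so.

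Itga4, the α chain of VLA-4 that binds VCAM-1, was at 0.774 to 2.33 CPM in CON-GFP and 1.90 to 3.72 CPM in FPC-GFP (log2FC 0.82, SE 0.28, adjusted p = 0.0431). Itga6, another laminin receptor chain, was at 1.10 to 2.72 CPM and 2.05 to 4.95 CPM (log2FC 0.82, SE 0.25, adjusted p = 0.0304). The ranges of both overlapped between groups. Among libraries numbered 55 to 68, Itga9 passed (log2FC 0.61, adjusted p = 0.00601), while Itga3 (0.44, adjusted p = 0.0582), Itga4 (0.73, adjusted p = 0.127) and Itga6 (0.70, adjusted p = 0.0787) did not. Leaving out each of the 12 mice in turn never ended the call for Itga9, but ended it for Itga3 in 2 cases, for Itga6 in 5 and for Itga4 in 8.

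The remaining 13 tested integrins did not pass for the diet. By far the highest of them, Itgb1, had a log2FC of 0.02 (SE 0.09), with 142 ± 10.9 CPM in CON-GFP and 145 ± 9.07 in FPC-GFP. Itgb5 was at 40.9 to 81.0 CPM in CON-GFP and 70.5 to 99.0 CPM in FPC-GFP, just short of the adjusted p threshold and below the fold minimum (log2FC 0.43, SE 0.15, adjusted p = 0.0532). Itgb7, the partner of α4 and αE on lymphocytes, had a log2FC of 0.66 (SE 0.25, adjusted p = 0.0707). Itga5, the fibronectin receptor chain, was at 23.8 ± 5.38 and 26.2 ± 7.48 CPM (log2FC 0.13), and the collagen receptor chains Itga1 (-0.08) and Itga10 (-0.54) had fitted values below 0. Over the 21 tested integrins the median log2FC was 0.25, beside 0.01 over all tested genes.

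For the diet, none of the 8 tested claudins reached an adjusted p under 0.05 by edgeR, 1 had an unadjusted p under 0.05, and the DESeq2 Wald test called 0 DE. That 1 gene was Cldn1, a sealing claudin, at 46.2, 73.9 and 101 CPM in CON-GFP (lowest, median and highest) and 27.7, 44.6 and 78.1 CPM in FPC-GFP. Its groups overlapped over most of their range (log2FC -0.62, SE 0.25, adjusted p = 0.0803). Cldn2, the pore-forming claudin, was at 75.2 to 111 CPM and 61.5 to 118 CPM (log2FC 0.05, SE 0.14), Cldn3 at 33.0 to 67.2 and 45.6 to 90.1 CPM (0.33, SE 0.19), and Cldn12 at 52.5 to 94.0 and 50.7 to 76.7 CPM (-0.17, SE 0.15). Cldn14, the gene of a claudin found in liver and kidney, was at 3.87 to 7.38 CPM in 5 FPC-GFP libraries and at 20.1 CPM in FPC-GFP 11, and its log2FC went from 0.16 to -0.34 without that library. The median over the 8 tested claudins was 0.19.

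The second comparison asked what LIPA added on the FPC diet, and it shares the FPC-GFP mice with the first. Itga8, Itgae, Itgam and Itgax were DE, all higher in FPC-LIPA, making 4 of 21 integrins where 10.3% of all tested genes were DE higher. No integrin or claudin was DE lower by edgeR (1.11% of all tested genes), while the DESeq2 Wald test called Cldn14 DE lower. Itgam was at 0.542, 1.62 and 2.30 CPM (lowest, median and highest) in FPC-LIPA against 0.455, 0.525 and 1.35 in FPC-GFP (log2FC 1.27, SE 0.38, adjusted p = 0.0337). FPC-LIPA 39, at 0.542 CPM, lay inside the FPC-GFP range, and FPC-LIPA 36 lay just under FPC-GFP 19. Itgax was at 2.75, 4.25 and 6.15 CPM against 0.966, 2.12 and 3.30, with the groups overlapping only through FPC-LIPA 39 (log2FC 1.05, SE 0.31, adjusted p = 0.0317). Both genes were thus DE in each comparison, but the FPC-GFP libraries enter both. Itgb2 and Itgal did not pass here (log2FC 0.42, SE 0.33, adjusted p = 0.359 and 0.44, SE 0.31, adjusted p = 0.302). The chain Itgb2 was at 14.9, 31.4 and 20.8 CPM in FPC-LIPA 31, 33 and 34 and at 7.58, 7.13 and 10.4 CPM in FPC-LIPA 36, 39 and 37, so the first 3 of these lay at or above the FPC-GFP median and the last 3 below it. Whether the effect on Itgb2 and Itgal differed from that of the diet was not tested.

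Several leukocyte lists were higher in FPC-LIPA, while Itgb2 was not called. The pan-leukocyte list summed to 92.1 to 205 CPM, above every FPC-GFP library, with 3 of 5 DE higher, and the monocyte and macrophage list to 499 to 928 CPM, with 5 of 8 DE higher. Of all tested genes 10.3% were DE higher. Without FPC-LIPA 36, 37 and 39 the counts DE higher fell to 2 of 5 and 2 of 8. Within numbers 55 to 68 they fell to 2 of 5 and 1 of 8. The Kupffer cell list overlapped between groups (403 to 572 and 416 to 851 CPM), with 2 of 6 higher at an adjusted p under 0.05, none of them DE, and 1 DE lower. Ptprc was at 14.5 to 22.4 CPM in 5 FPC-LIPA libraries and 76.5 CPM in FPC-LIPA 37 (log2FC 1.67, SE 0.38, adjusted p = 0.0159). Without FPC-LIPA 36, 37 and 39 its log2FC was 1.14 (adjusted p = 0.0325). The ratio of Itgb2 to Ptprc CPM was 0.942, 1.57 and 0.930 in FPC-LIPA 31, 33 and 34 and 0.377, 0.492 and 0.136 in FPC-LIPA 36, 39 and 37. FPC-LIPA 33 lay above the whole FPC-GFP range of 1.12 to 1.46, and all other FPC-LIPA libraries lay below it. The part of these cells in the integrin result was not tested.

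Itga8 encodes the α8 chain, which pairs with β1, binds nephronectin and is found in liver on stellate cells, the vitamin A storing cells that can become myofibroblasts. It lies on chromosome 2 (12106632 to 12301922, - strand) and was at 1.53, 3.69 and 4.89 CPM in FPC-GFP (lowest, median and highest) and 5.08, 7.65 and 26.5 CPM in FPC-LIPA. All 6 FPC-LIPA values lay above FPC-GFP (log2FC 1.59, SE 0.39, adjusted p = 0.0193), with FPC-LIPA 37 at 26.5 CPM and FPC-LIPA 36 at 12.1 CPM the highest. Without FPC-LIPA 37 alone it was still DE (log2FC 1.09, adjusted p = 0.0364). The diet alone had left it at 2.99 ± 0.778 CPM in CON-GFP and 3.58 ± 1.15 in FPC-GFP (log2FC 0.25, SE 0.25, adjusted p = 0.501). The stellate cell and fibroblast list (6 genes, none at 0) summed to 174 to 215 CPM in FPC-GFP and 227 to 635 CPM in FPC-LIPA, and was highest in FPC-LIPA 37 (635 CPM) and 36 (319 CPM). Of its 6 genes 2 were higher at an adjusted p under 0.05 (14.4% of all tested genes were) and the other 4 had fitted values below 0, with a median log2FC of -0.16. None of the 6 passed without FPC-LIPA 36, 37 and 39, or within numbers 55 to 68. Its part in the Itga8 result was not tested.

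Itgae, the CD103 chain that pairs with β7 and binds E-cadherin on epithelia, lies on chromosome 11 (73090583 to 73147446, + strand). It was rare, with 2 to 27 counts in the FPC-GFP libraries and 6 to 58 in FPC-LIPA, and ran from 0.103 through 0.466 to 0.819 CPM and from 0.148 through 1.36 to 3.73 CPM. FPC-LIPA 33, at 0.148 CPM, lay near the bottom of the FPC-GFP range, and FPC-LIPA 37, 39 and 36 were highest at 3.73, 2.62 and 1.70 CPM (log2FC 1.88, SE 0.60, adjusted p = 0.040). T cell markers (6 genes, none at 0) summed to 1.59 to 4.25 CPM in FPC-GFP and 2.90 to 8.33 CPM in FPC-LIPA, with 1 of 5 tested DE higher. Dendritic cell markers (5 genes, none at 0) summed to 7.66 to 11.4 CPM and 12.8 to 15.6 CPM, with 3 of 5 DE higher (10.3% of all tested genes were). No gene of either list passed without FPC-LIPA 36, 37 and 39, or within numbers 55 to 68. The part of either list in the result was not tested. The partner chain Itgb7 did not pass (log2FC 0.25, SE 0.34, adjusted p = 0.598), and neither did the other β7 partner Itga4, at 1.90 to 3.72 CPM in FPC-GFP and 2.57 to 6.15 CPM in FPC-LIPA (0.68, SE 0.26, adjusted p = 0.0640).

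None of the 4 LIPA calls held in either reduced set of libraries. Without FPC-LIPA 36, 37 and 39, Itga8 had a log2FC of 0.85 (adjusted p = 0.156), Itgae of 0.64 (adjusted p = 0.606), Itgam of 1.45 (adjusted p = 0.0790) and Itgax of 1.10 (adjusted p = 0.124). Within the libraries numbered 55 to 68 the values were 1.16 (adjusted p = 0.0704), 1.31 (adjusted p = 0.152), 1.11 (adjusted p = 0.118) and 1.03 (adjusted p = 0.0965). Leaving out each of the 12 mice in turn kept Itga8 past the test (adjusted p of 0.00534 to 0.0453), while Itgax lost it in 6 cases, Itgam in 7 and Itgae in 9. Fewer mice entered these fits, and over all genes the number DE higher went from 1508 to 111 and 93.

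**Figure D4:**
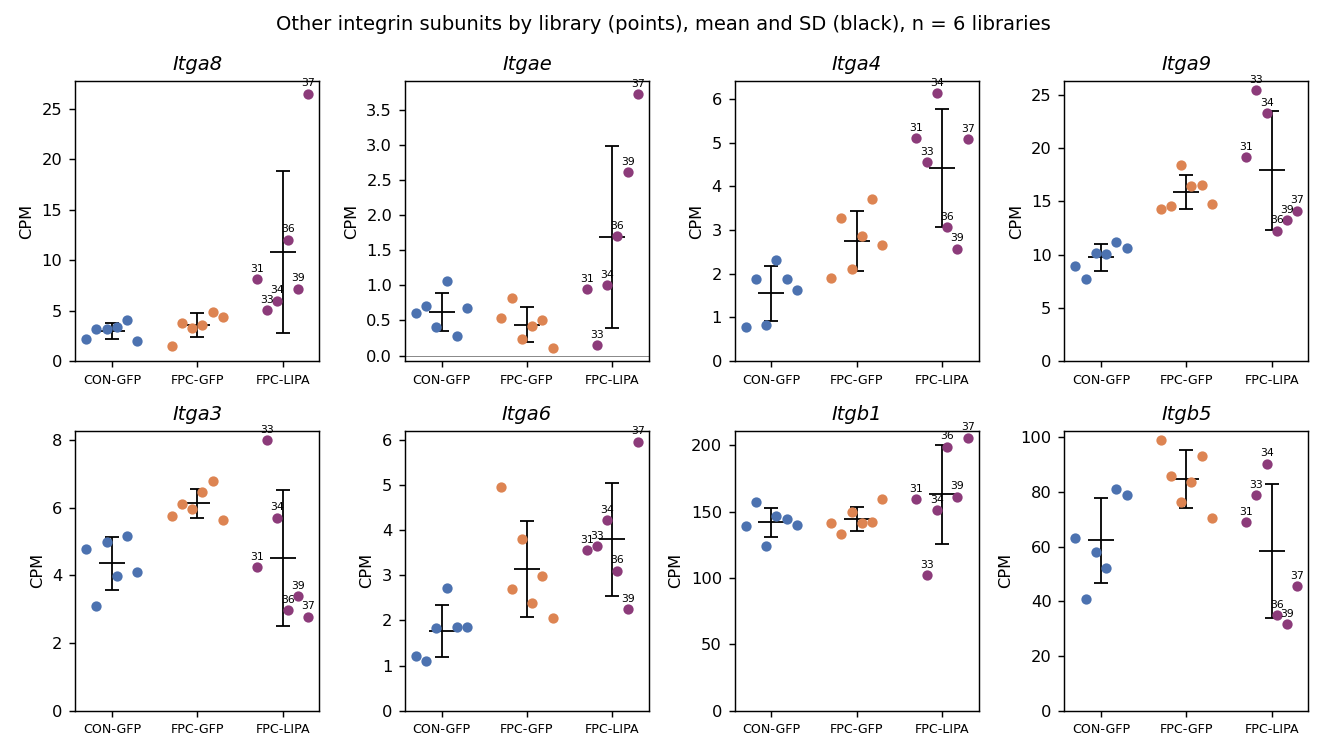
Level of 8 further integrin genes (CPM, vertical axes) in each library of the 3 groups (points), with the mean and SD in black and FPC-LIPA mice numbered. Itga8 is above 5 CPM in every FPC-LIPA library and reaches 26.5 CPM in FPC-LIPA 37, and Itgb5 is at 31.6 to 45.5 CPM in FPC-LIPA 36, 37 and 39 against 69.1 to 90.4 CPM in the other 3.

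Among claudins, Cldn5 alone passed the test in FPC-LIPA, below the fold minimum. It encodes claudin-5, the tight junction claudin of endothelium, and lies on chromosome 16 (18776847 to 18778262, + strand). Its level ran from 4.98 through 6.14 to 7.59 CPM in FPC-GFP and from 8.76 through 10.3 to 16.2 CPM in FPC-LIPA. Every FPC-LIPA library lay above every FPC-GFP library (log2FC 0.84, SE 0.19, adjusted p = 0.0159). With Itga8 it was 1 of 2 members that did so, where 3.81% of all tested genes did. Together with the 4 DE integrins it made 5 of 30 tested members higher at an adjusted p under 0.05 (14.4% of all tested genes), and no member was lower (6.87%). The endothelial list (6 genes, none at 0) summed to 163 to 203 CPM in FPC-GFP and 204 to 324 CPM in FPC-LIPA, with 0 of 6 passing, and FPC-LIPA 39 was highest both for this list and for Cldn5. Its part in the result was not tested. Cldn5 had a log2FC of 0.56 without FPC-LIPA 36, 37 and 39 (adjusted p = 0.105) and of 0.89 within numbers 55 to 68 (adjusted p = 0.0612), and it reached 1.32 (adjusted p = 0.0111) when each library's trend on GC content was removed.

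**Figure D5:**
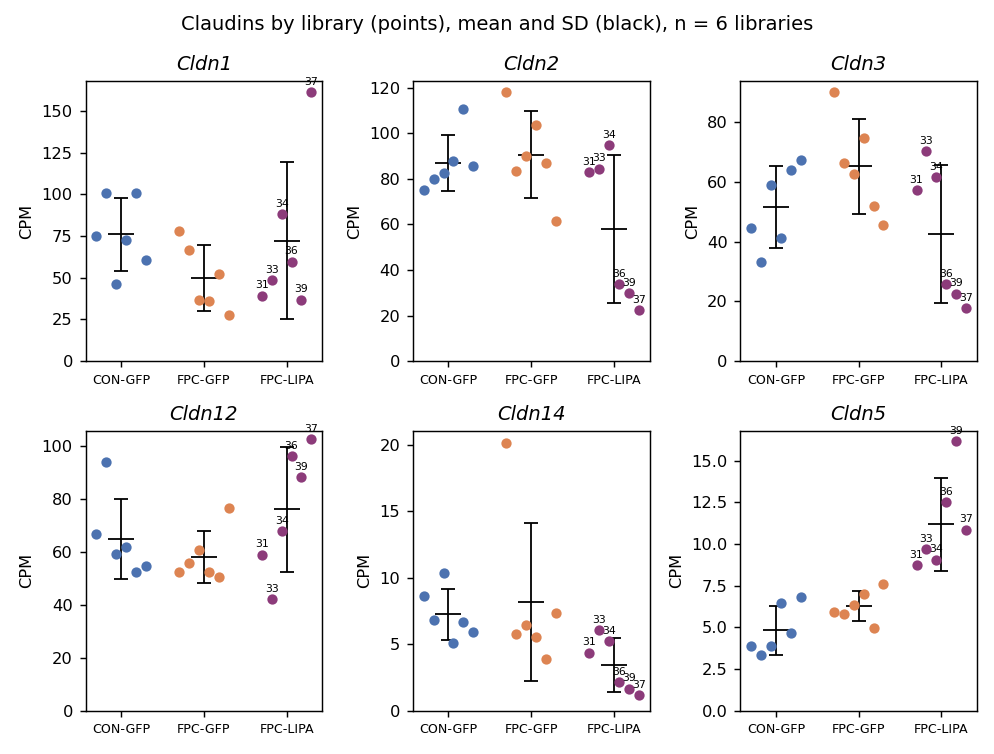
Level of 6 claudin genes (CPM, vertical axes from 0) in each library of the 3 groups (points), with the mean and SD in black and FPC-LIPA mice numbered. For Cldn2, Cldn3 and Cldn14 the 3 lowest FPC-LIPA points are 36, 37 and 39, and all FPC-LIPA points for Cldn5 lie above FPC-GFP.

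The other claudins spread widely inside FPC-LIPA. Cldn2 was at 83.2, 84.5 and 94.8 CPM in FPC-LIPA 31, 33 and 34 and at 33.7, 29.9 and 22.5 CPM in FPC-LIPA 36, 39 and 37, while the lowest FPC-GFP library was at 61.5 CPM. Cldn3 behaved alike, at 57.1, 70.3 and 61.4 CPM against 25.8, 22.6 and 17.6 CPM, with the lowest FPC-GFP library at 45.6 CPM. Cldn14 was at 4.38, 6.07 and 5.23 CPM against 2.13, 1.67 and 1.19 CPM. As whole groups, Cldn2 (log2FC -0.64, SE 0.33, adjusted p = 0.163), Cldn3 (-0.61, SE 0.32, adjusted p = 0.168) and Cldn14 (-1.22, SE 0.45, adjusted p = 0.0599) did not pass. Without those 3 libraries log2FC was -0.04 for Cldn2, -0.04 for Cldn3 and -0.63 for Cldn14. Cldn12 went the other way, at 59, 42.2 and 68 CPM in FPC-LIPA 31, 33 and 34 and 96.2, 88.2 and 103 CPM in 36, 39 and 37. Cldn1 was at 36.8 to 88.3 CPM in 5 libraries and at 161 CPM in FPC-LIPA 37 (log2FC 0.55, SE 0.36, adjusted p = 0.270).

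The same libraries set the order for several integrins. Itgb5 was at 69.1, 78.8 and 90.4 CPM in FPC-LIPA 31, 33 and 34 and at 35.1, 31.6 and 45.5 CPM in FPC-LIPA 36, 39 and 37 (whole group log2FC -0.53, SE 0.25, adjusted p = 0.124), and -0.08 without the last 3. Itga5 was at 16.2, 41.1 and 29.3 CPM against 7.55, 14.6 and 8.18 CPM (-0.42, SE 0.37). Itgb1 was at 160, 102 and 151 CPM against 199, 161 and 206 CPM (0.18, SE 0.18). Of the 30 tested members, 9 had FPC-LIPA 36, 37 and 39 as the 3 lowest of the group and 5 as the 3 highest, where 23.2% and 23.9% of all tested genes did so. These shares lie near those of the whole table and are no result about the members. Exon GC content had a median of 57.3% in the 9 and 51.4% in the 5, and of 53.3% and 45.3% in all genes so ordered, which was not tested as a source.

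Among genes that work with integrins and claudins, calls on the diet were mainly of higher levels. Of 18 tested adhesion receptors and vessel wall ligands for leukocytes, 4 were DE higher in FPC-GFP (4.76% of all tested genes were), among them the hyaluronan receptor Cd44 (log2FC 1.42), the LFA-1 ligand Icam1 (1.24) and VE-cadherin Cdh5 (1.13). Icam1 was at 4.77 to 11.2 CPM in CON-GFP and 15.1 to 25.4 CPM in FPC-GFP (adjusted p = 0.000902), in the comparison in which Itgal and Itgb2 were also higher. Of 22 tested matrix ligands, 10 were DE higher, including tenascin-C (Tnc, 2.21), a ligand of α9β1, nephronectin (Npnt, 2.05), a ligand of α8β1, and Nid1 (1.91). Vtn (1784 ± 464 and 1396 ± 137 CPM, adjusted p = 0.122) and Fn1 (881 ± 186 and 775 ± 203 CPM, adjusted p = 0.439), the ligands with the highest levels, did not pass. Cd47, which binds thrombospondin and signals against phagocytosis, and the junction protein F11r were the adhesion genes with the highest levels and did not pass (log2FC -0.11 and 0.06). Of 27 tested adaptors and signalling genes, 8 were DE higher, among them the Src family kinase Fgr (1.49) and the parvin Parvb (1.43), and 1 was lower at an adjusted p under 0.05. Among 19 tested tight junction partners none was DE by edgeR, with 3 higher and 1 lower at an adjusted p under 0.05, and Lsr, which marks tricellular junctions, was 1 of the 3 (0.56, adjusted p = 0.0316), while Cxadr, the coxsackievirus and adenovirus receptor, was not (0.31, adjusted p = 0.209). Within numbers 55 to 68 the counts DE higher were 4 of 18, 9 of 22 and 5 of 27, and Lsr missed the threshold (0.47, adjusted p = 0.116). Medians over these 4 lists were 0.60, 0.96, 0.31 and 0.15.

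For LIPA, 10.3% of all tested genes were DE higher. Of the adhesion genes, 5 of 18 were, among them Cd44 (log2FC 1.29), Cd34 (1.17) and Cd47 (1.13). Icam1 was at 13.0 to 30.4 CPM in FPC-LIPA, with a log2FC of -0.12 (adjusted p = 0.716). Of the matrix ligands, 1 of 22 was DE higher, Col3a1 (1.70), while Fn1 was lower with no overlap between groups (-0.91, SE 0.22, adjusted p = 0.0188). Tnc (-0.03) and Npnt (-0.51) did not pass, although Itga8 was DE. Of 27 adaptors, 4 were DE higher, including the small GTPases Rap1b (2.19) and Rap1a (1.35), which act in switching integrins on, and Itgb1bp1 (1.59), which binds the β1 tail. Rap1b was at 37.5 to 53.7 CPM in FPC-GFP and 59.6 to 521 CPM in FPC-LIPA. Without FPC-LIPA 36, 37 and 39 the counts DE higher were 2 of 19 adhesion genes, 0 of 22 matrix ligands and 1 of 27 adaptors, and Cd44 passed (log2FC 1.13, adjusted p = 0.0316) while Col3a1 (0.73), Fn1 (-0.74), Cd47 (0.28), Rap1b (0.65), Rap1a (0.26) and Itgb1bp1 (0.55) did not. Within numbers 55 to 68 they were 1 of 18 (Cd34, 1.21), 0 of 22 and 0 of 27. Of the tight junction partners, 0 of 19 were DE, 0 were higher and 3 were lower at an adjusted p under 0.05 by edgeR. Medians over the 4 lists were 0.22, -0.16, 0.15 and -0.43, beside 0.39 for the tested integrins, 0.53 for the tested claudins and 0.04 for all tested genes. The claudin median is the value of Cldn7, a rare gene at 0.510 CPM on average. Of the 9 tested claudins 6 were fitted higher and 3 lower, the latter Cldn2, Cldn3 and Cldn14. Summed claudin CPM per kb was 112 ± 21.7 in FPC-GFP and 95.1 ± 20.7 in FPC-LIPA (SD, n = 6). The lists were chosen with earlier results of these data known and are given as descriptions. Of 14 claudin-like and integrin-like genes outside the rule, 2 were tested, Cldnd1 and Itgbl1, and neither passed in either comparison (log2FC -0.10 and 0.25 for the diet, 0.13 and 0.72 for LIPA).

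Members too rare to test were mainly claudins. Cldn9, Cldn11, Cldn16, Cldn17, Cldn19 and Cldn24 had no count in any library, which does not exclude a very low level, and Cldn13 and Cldn22 had at most 2 counts. Cldn4, Cldn6, Cldn10, Cldn18, Cldn20 and Cldn23 stayed at or below 0.931 CPM. Cldn8 passed the filter for LIPA alone (log2FC 0.87, SE 0.69, adjusted p = 0.359). Itga2, Itga11, Itgad, Itgb6 and Itgb8 were the 5 untested integrins, and Itgad, the fourth β2 partner, had at most 10 counts.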

How the data were processed

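Liver RNA of 18 male mice was sequenced in pairs on a NovaSeq. The authors trimmed reads with Trimmomatic, mapped them to GRCm38 with Hisat2 2.1.0 and deposited the raw read counts per gene that Feature Counts gave. Library kits were TruSeq RNA or stranded mRNA, and which library used which, the strand setting and the annotation release are not given in the sources used here. Of 23 count columns, 5 could not be tied to a labelled sample and were not used. Groups and mouse numbers came from the sample titles, of which that of FPC-LIPA 37 reads 37b.

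Counts were tested with edgeR 4.0.16 in R 4.3.3 (filterByExpr, TMM, glmQLFit, glmQLFTest, Benjamini-Hochberg), with the 12 libraries of each comparison in a fit of their own. SE is the log2 fold change divided by the root of F. DE followed the study's thresholds. Exon lengths, GC content and positions came from GENCODE M21 on GRCm38. On simulated data with 200 genes changed 4-fold, 197 were recovered for the diet (14307 genes) and 194 for LIPA (14620 genes), with 5 and 10 unchanged genes called. These data held no 2-fold changes and no difference between libraries inside FPC-LIPA, so they do not show how the test fares with either. DESeq2 1.42.0, other scalings, filters, thresholds and library sets were tried as alternatives, and removal of a GC trend was added after seeing the data. The members and lists were chosen with earlier results of these data known. The genes named are members DE or past an adjusted p of 0.05 in either comparison, the 2 members of each role group (4 claudins) with the highest mean CPM, and from each further list the 2 highest genes and up to 3 DE genes per direction, of which some are not reported here; values of 10 more tested members, and of untested ones, were added after they were seen. Totals per library, 16632146 to 37739301 counts, set the precision of rare genes, and no interval for counting error is given.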

Additional observations from a re-analysis of the deposited data

Results flagged for a closer look

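Each of the 90 groups of 6 libraries (30 tested members in 3 groups) was searched for a library whose gap to its nearest neighbour exceeded Dixon's 95% critical share of the group's range, which chance gives in about 1 in 20 groups. It was met 10 times. FPC-LIPA 37 was the high library 3 times, for Itga8 at 26.5 CPM (next 12.1), for Itga1 at 50.2 CPM (next 31.4) and for Cldn7 at 1.75 CPM (next 0.821). That library had the fewest counts (16632146) and a ribosomal protein share of 8.20%. FPC-GFP 11 was high for Cldn14 at 20.1 CPM (next 7.38) and for Itgb3 at 4.14 CPM (next 2.41). Its sum over Msln, Upk3b, Lrrn4 and Krt8, listed as mesothelial markers, was 1839 CPM, where the other FPC-GFP libraries ran from 301 to 445 CPM. The same sum was 119 to 249 CPM in CON-GFP. Of the 3 genes tested for the diet, 1 had a fitted value above 0, so the sum may follow a single gene. Myeloid Itgam stood at 1.35 CPM in FPC-GFP 19 (next 0.564), which also had the highest monocyte and macrophage sum of its group, 418 CPM. Itgb7 was at 3.19 CPM in FPC-GFP 16 (next 1.95). In CON-GFP, Itga10 was at 5.26 CPM in mouse 3 (next 2.77), Cldn12 at 94.0 CPM in mouse 2 (next 66.6) and Cldn2 at 111 CPM in mouse 7 (next 87.8). The part of library quality or cell content in these values was not tested.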

How the results depend on the processing

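No paired analysis was possible because the groups share no mouse number. For the diet, 4 integrins were DE, and the count was 8 with no fold minimum, 2 at an adjusted p under 0.01 (Itgal, Itgb2), 2 within numbers 55 to 68 and 2 to 4 when each mouse was left out, the 2 (Itgal, Itgb2) without FPC-GFP 19; the other alternatives gave 3 to 5. No claudin was DE, except 1 (Cldn6) with no filter on low counts and 1 (Cldn6) within numbers 55 to 68. Cldn6 was below the main filter, and no conclusion is drawn from its calls. For LIPA, 4 integrins were DE, and the count was 0 at an adjusted p under 0.01, 1 (Itga8) with library size alone, 2 (Itga8, Itgae) with no filter, 0 within numbers 55 to 68, 0 without FPC-LIPA 36, 37 and 39, and 1 to 5 with each mouse left out. It was 1 (Itga8) when mouse 11, 12, 13 or 20 of FPC-GFP, or mouse 36 or 37 of FPC-LIPA, was left out, and 2 (Itga8, Itgax) without FPC-GFP 16. Without any 1 mouse the adjusted p of Itga8 stayed at or below 0.0453. LIPA claudins went from 0 to 1 with no fold minimum and with the GC trend removed (Cldn5), and with the DESeq2 Wald test, with all 18 libraries in one fit and with a mouse left out (0 to 1, without FPC-LIPA 33 or 34; Cldn14, lower). For the diet, the adjusted p of Itga3 was above 0.05 without CON-GFP 6 or FPC-GFP 19, that of Itga6 without CON-GFP 1 or 2 or FPC-GFP 11, 13 or 19, and that of Itga4 without CON-GFP 1, 2, 3 or 8 or FPC-GFP 12, 16, 19 or 20. In the fit of all 18 libraries the 3 genes missed the threshold too. For LIPA, Itgax missed it when any of those same 6 mice was left out, Itgam also without FPC-GFP 16, and Itgae when any FPC-GFP mouse, or mouse 36, 37 or 39 of FPC-LIPA, was left out. The cause was not tested.

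Signs changed only for members that did not pass. For the diet, library size alone, which moves the median of all genes to 0.21, gave Itga1 0.11, Itga7 0.057, Itgav 0.17, Itgb3 0.057 and Cldn12 0.045. Removing the GC trend gave Itga1 0.061, Itga2b -0.13, Itga5 -0.079, Itgav 0.098, Itgb4 -0.038 and Cldn14 -0.11, and removing the length trend gave Itgb1 -0.052 and Cldn2 -0.0038. Numbers 55 to 68 gave Itga2b -0.042, Itgav 0.155 and Cldn15 -0.097. Leaving out 1 mouse gave Itga2b -0.023 to 0.16, Itgav -0.19 to 0.14, Itgb1 -0.021 to 0.051, Cldn14 -0.34 to 0.31, Cldn15 -0.013 to 0.45 and Cldn2 from -0.038 to 0.14. For LIPA, leaving out FPC-LIPA 36, 37 and 39 gave Itga5 0.15, Itgav -0.023, Itgb1 -0.066 and Cldn12 -0.037, the GC trend gave Itga7 0.074, Itgb1 -0.041 and Cldn1 -0.15, library size alone, which moves the median to -0.091, gave Itgb1 -0.0012, numbers 55 to 68 gave Cldn7 -0.0093, and leaving out 1 mouse gave Itgb4 -0.48 to 0.45. Of 691 and 745 alternative values, 653 and 689 kept their sign and whether the gene was DE, and 617 and 681 also kept their side of an adjusted p of 0.05. Itgam, Itgae and Itgb4 rest on few counts per library.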

Other observations

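Some members below the filter stood out in single libraries. Itgb8, whose product pairs with αv and activates latent TGF-β, was at 8.33 CPM (105 counts) in FPC-LIPA 37 and at or below 0.773 CPM in the 17 other libraries. Itgb6, an epithelial αv partner, was highest in the same library at 0.953 CPM, as was the cholangiocyte marker sum at 211 CPM, where the other libraries ran from 28.1 to 107 CPM. Cldn6, a claudin of embryonic epithelia, ran from 0.136 to 0.931 CPM in FPC-GFP and from 0 to 0.168 CPM in CON-GFP. In FPC-LIPA it ran from 0 to 0.222 CPM. It was called DE higher on the diet in 2 alternatives that let it into the test. Its counts per library were 0 to 6 in CON-GFP and 3 to 31 in FPC-GFP. In the reduced set of libraries it could thus pass the filter only through FPC-GFP, the group in which it was higher. No conclusion is drawn from these calls.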
